A study of Mus musculus with 12 samples.

Results

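Expression of the genes that place histone H3.3 in chromatin, and of the genes that encode H3.3, was examined in embryonic hearts that lack *Hira* in the cardiogenic lineage. The 9 genes were *Hira*, *Ubn1*, *Ubn2* and *Cabin1*, the subunits of the HIRA complex, *Asf1a*, the chaperone that hands histones to it, *Daxx*, the core of a separate H3.3 chaperone, *H3f3a* and *H3f3b*, which encode H3.3, and *Whsc1*, a histone methyltransferase. They were picked by function and matched by symbol among the 20368 genes of the deposited table. All 9 were found, all passed the filter on low values and all were tested in each comparison.

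H3.3 is the histone H3 variant that cells can insert into chromatin outside DNA replication. HIRA, UBN1 or UBN2, and CABIN1 form the complex that inserts it at active genes and at gaps left without nucleosomes, and ASF1A delivers the histone pair to that complex. DAXX works with the remodeller ATRX and inserts H3.3 mainly at repeats, telomeres and silent chromatin. WHSC1, also called NSD2, methylates a lysine in the tail of histone H3 that is marked along transcribed genes.

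The hearts came from CD1 embryos at E11.5 and E12.5, with 3 libraries in each of 4 groups. Controls were *Mesp1Cre*;*Hira*+/fl and mutants *Mesp1Cre*;*Hira*-/fl, so all hearts carried the Cre and a floxed allele. *Mesp1Cre* is active in early cardiogenic mesoderm. Cells of that lineage keep 1 working allele in controls and none in mutants, while heart cells of other origins, such as neural crest, keep the floxed allele in both groups. The mutants also carry a null allele in every cell. RNA was made from hearts without sorting, so fewer cells of a type and less RNA per cell cannot be told apart. The labels do not state whether a library was made from 1 heart or from a pool, and p-values measure the spread between these libraries.

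Libraries held 11994148 to 17483982 reads on genes. Y-linked reads gave 3 male libraries of 3 in E11.5 controls and 1 of 3 in each other group, so sex and genotype overlap at E11.5. Cardiomyocyte markers were abundant in all libraries, with a summed level of 21030 to 29130 CPM (counts scaled to library size with the TMM method of edgeR), and none of its 9 genes passed an adjusted p of 0.05 between genotypes at either stage (edgeR). The same held for the tested genes of the endothelial, epicardial, proliferation and liver lists. Epicardial markers nonetheless summed to 519 to 794 CPM in control and 334 to 452 CPM in mutant hearts of E11.5, without overlap. Liver markers summed to 1.16 to 24.8 CPM and 1.22 to 55.8 CPM in the same groups, and at E12.5 to 4.42 to 5.87 CPM in controls and 4.03 to 50.9 CPM in mutants. The summed erythroid markers stood at 3928 to 6353 CPM in the control and 2117 to 2677 CPM in the mutant hearts of E12.5, with 5 of 7 tested genes lower. Of the 9 erythroid markers 8 were found, and none was at 0 in all libraries. Macrophage markers summed to 110 to 137 CPM and 53.3 to 72.1 CPM in the same groups, with 4 of 7 lower (7 of 8 markers found, none at 0 in all libraries), and to 66.2 to 121 CPM and 30.1 to 38.9 CPM at E11.5, with 0 of 7 lower past the test. In the third E11.5 mutant library long genes were low, their median log2 level standing 0.61 below that of short genes when both were set against the other E11.5 libraries. By that measure long genes stood 0.42 and 0.32 above short genes in the first and second E11.5 mutant libraries. The third was also the only male E11.5 mutant, so E11.5 fits without it set female mutants against male controls. Among controls, the same measure, long minus short, was -0.30 in the third E11.5 library. It was 0.33 in the first E12.5 control, set against the other E12.5 libraries. For the 9 genes, results that include the third E11.5 mutant library are given with and without it where a call or a sign changed. For other named genes, fits without that library are not given.

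Per base of gene length, RNA of the H3.3 genes stood far above RNA of the genes whose proteins handle H3.3. Mean levels over the 12 libraries were 504 RPKM for *H3f3a* and 191 RPKM for *H3f3b*. *Asf1a* followed at 22 RPKM, then *Hira* at 16.1, *Whsc1* at 14.9, *Ubn1* at 13.5, *Daxx* at 12.7 and *Cabin1* at 11 RPKM, with *Ubn2* lowest at 4.53 RPKM. *H3f3a* exceeded *H3f3b*, and *H3f3b* exceeded *Asf1a*, in 12 of 12 libraries. *Ubn1* exceeded *Daxx* in 7 of 12 and *Daxx* exceeded *Cabin1* in 9 of 12, so these neighbours overlap.

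**Figure D1:**
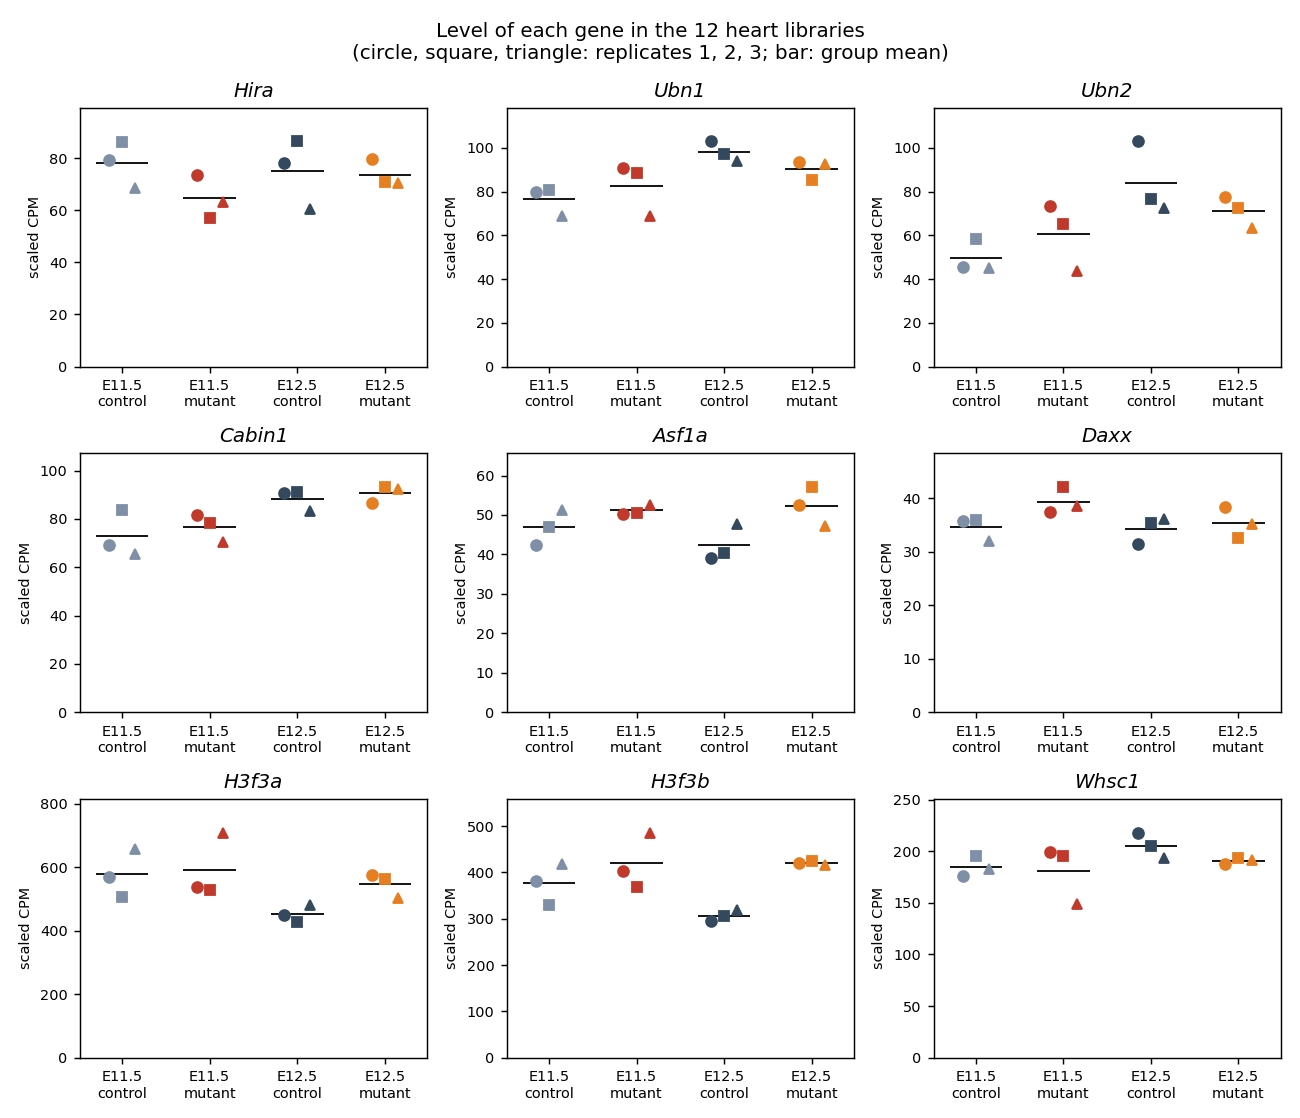
Level of the 9 genes in each of the 12 libraries, on the vertical axis in TMM-scaled CPM from 0, with the 4 groups on the horizontal axis, a symbol for each replicate and a bar for the group mean. In E12.5 hearts the mutants lie above all controls for *H3f3a* and *H3f3b* and below all controls for *Ubn1*, while *Hira* overlaps between genotypes at both stages.

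*Hira* lies on chromosome 16, positions 18877037 to 18970309 of GRCm38, on the + strand. The study checked recombination by PCR, by western blotting for HIRA and by reads over exon 4, which is the 4th of 25 exons of the principal transcript, at 18897698 to 18897788. The exon is printed here, in capitals, between the last 30 bases of exon 3 and the first 30 bases of exon 5 (GENCODE vM21 on GRCm38), because it is the piece by which the recombined transcript differs.
Hira exon 4: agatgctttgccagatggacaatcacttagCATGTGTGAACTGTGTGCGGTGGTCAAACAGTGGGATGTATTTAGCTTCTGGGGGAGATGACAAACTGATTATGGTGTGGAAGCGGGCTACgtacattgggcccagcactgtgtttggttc
Its 91 bases leave a remainder of 1 after division by 3, so joining exon 3 to exon 5 shifts the reading frame. A script that made this join met the first stop at codon 104 of a frame that otherwise has 1015 codons. Exon 4 is 2.01% of the 4534 bases taken as the length of *Hira* in the deposited table. The counts are per gene, so they do not separate transcripts with and without it and are no check of the recombination.

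*Hira* RNA counted over the whole gene was not detectably lower in mutants at either stage. At E11.5 the controls had 79.5, 86.2 and 68.6 CPM and the mutants 73.7, 57 and 63.3 CPM, and the groups overlap through the lowest control and the highest mutant. The log2 fold change was -0.26 (SE 0.14, 95% interval -0.59 to 0.06, adjusted p = 0.607, edgeR's quasi-likelihood test with Benjamini-Hochberg adjustment over all genes). At E12.5 the controls had 78, 86.5 and 60.7 CPM and the mutants 79.7, 71 and 70.4 CPM, so the mutants lay inside the range of the controls. The log2 fold change there was -0.01 (SE 0.12, 95% interval -0.27 to 0.24, adjusted p = 0.962, edgeR). With both stages in 1 fit the mutants stood at 0.911 of the controls, with a 95% interval of 0.784 to 1.06 (adjusted p = 0.528, edgeR). The protein-coding gene model *Gm28539* overlaps 79211 bases of *Hira* on the same strand and has no row of its own in the table, so reads common to both could be among the counts of *Hira*.

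*Ubn1* and *Ubn2* encode the alternative ubinuclein subunits that bind HIRA and the histone. *Ubn1* in E12.5 hearts had 103, 97.1 and 93.8 CPM in controls and 93.7, 85.1 and 92.7 CPM in mutants. All mutants were lower, but the highest mutant missed the lowest control by little, and the log2 fold change was -0.10 with SE 0.07 (edgeR, adjusted p = 0.48). The median of all tested genes over 6000 bases, the length class of *Ubn1*, was also -0.10. At E11.5 *Ubn1* had 79.7, 80.9 and 69 CPM in controls and 90.8, 88.4 and 68.9 CPM in mutants, and the groups overlap.

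Of the 4 subunit genes *Ubn2* had the widest range over the 12 libraries, from 43.6 to 103 CPM. E11.5 controls had 45.6, 58.2 and 45.1 CPM and E11.5 mutants 73.5, 65.3 and 43.6 CPM, the low mutant value coming from the third library with its low long genes. This gave a log2 fold change of 0.30 with SE 0.20 (edgeR, adjusted p = 0.708). Without that library it was 0.49 (edgeR, adjusted p = 0.185), with only female mutants left against male controls. With the length trend of each library removed, an alternative chosen after seeing the data, the log2 fold change was 0.28 (edgeR, adjusted p = 0.239). At E12.5 the controls had 103, 76.6 and 72.6 CPM and the mutants 77.6, 72.6 and 63.2 CPM, a log2 fold change of -0.23 with SE 0.13 (edgeR, adjusted p = 0.343) with overlapping groups. The E12.5 value was -0.06 with the length trend removed, and -0.06 without the first control. In that control long genes stood highest against short genes among the E12.5 libraries.

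*Cabin1* encodes the subunit that is also known as an inhibitor of calcineurin. Its levels were 69.1, 83.5 and 65.6 CPM in E11.5 controls and 81.8, 78.1 and 70.5 CPM in E11.5 mutants. At E12.5 they were 90.6, 91 and 83.1 CPM in controls and 86.7, 93.2 and 92.5 CPM in mutants. The groups overlap at both stages, with log2 fold changes of 0.09 (adjusted p = 0.913) and 0.06 (adjusted p = 0.709) in edgeR, and the E12.5 interval ran from -0.10 to 0.21. With sex as a covariate the E11.5 signs of the 3 subunit partners turned, to -0.13 for *Ubn1*, -0.16 for *Ubn2* and -0.02 for *Cabin1*. All E11.5 controls were male, and the only male mutant was the third library. The genotype effect in that fit therefore compares this library, with its low long genes, with the controls.

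*Asf1a* encodes the histone chaperone that feeds the HIRA complex. It had 39.1, 40.4 and 47.6 CPM in E12.5 controls and 52.5, 57.1 and 47.2 CPM in E12.5 mutants, and only the lowest mutant fell inside the control range. The log2 fold change was 0.32 (SE 0.10, 95% interval 0.09 to 0.55), with an unadjusted p of 0.0111 and an adjusted p of 0.109 in edgeR, from 0.0504 to 0.297 over the alternatives. At E11.5 the controls had 42.3, 46.9 and 51.3 CPM and the mutants 50.3, 50.5 and 52.6 CPM, a log2 fold change of 0.14 (adjusted p = 0.817, edgeR). *Asf1b*, the paralog tied to replication, did not pass the test at E12.5 either (log2 fold change 0.23 with SE 0.10, edgeR adjusted p = 0.211), with 35 to 38.1 CPM in controls and 37 to 46.3 CPM in mutants. *Asf1a* shares 12253 bases with *Mcm9* on the opposite strand, and whether the counting used the strand is not given in the sources used here.

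*Daxx* overlapped between genotypes at E12.5 and not at E11.5. E11.5 controls had 35.7, 35.9 and 32 CPM and mutants 37.5, 42.1 and 38.5 CPM, so all mutants were higher. Their log2 fold change was 0.19 with SE 0.12 (edgeR, adjusted p = 0.681). At E12.5 the controls had 31.5, 35.3 and 36.1 CPM and the mutants 38.3, 32.6 and 35.1 CPM (log2 fold change 0.06 with SE 0.10, edgeR adjusted p = 0.785). *Atrx*, the partner of DAXX, is on the X chromosome, which the authors' comparisons leave out, so it was not tested. Its recovered levels at E11.5 were 186 to 256 CPM in control and 118 to 273 CPM in mutant hearts, and at E12.5 they were 280 to 367 and 249 to 290 CPM. The lowest *Atrx* value was that of the third E11.5 mutant library.

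The H3.3 genes encode an identical protein from different coding sequences, which is why reads of one can be told from reads of the other. Over 411 coding bases, with the stop codon, 316 were the same (76.9%) and the longest identical run had 23 bases. The first 120 bases of each are printed (GENCODE vM21), with the 24 bases that differ in capitals.
H3f3a: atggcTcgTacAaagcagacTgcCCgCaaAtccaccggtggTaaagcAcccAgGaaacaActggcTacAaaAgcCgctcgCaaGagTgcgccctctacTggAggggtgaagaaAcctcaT
H3f3b: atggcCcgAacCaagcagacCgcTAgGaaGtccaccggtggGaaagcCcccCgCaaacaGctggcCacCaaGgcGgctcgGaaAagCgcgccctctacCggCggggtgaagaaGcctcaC
The processed pseudogenes *H3f3c*, *H3f3a-ps1* and *H3f3a-ps2* of the annotation match the *H3f3a* coding sequence over 98.3 to 99% of bases and have no row in the table. They were picked by name, and pseudogenes of *H3f3b* were not searched for. Reads of *H3f3a* could have been shared with these 3, so its level is uncertain to that extent. Whether the level of *H3f3b* is more certain was not tested.

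*H3f3b* was higher in E12.5 mutant hearts. The controls had 295, 305 and 319 CPM and the mutants 420, 424 and 417 CPM, so each group was tight and all mutants lay above all controls. On the log2 scale the difference was 0.47 with SE 0.07 (edgeR, adjusted p = 0.00495), which is 1.39-fold with a 95% interval of 1.25 to 1.54 and is under the 1.5-fold threshold of the study. The adjusted p was at most 0.05 in 17 of 18 alternatives, among them all 6 fits that left out a library, where it ran from 0.00617 to 0.0263. It was 0.075 with all 12 libraries in 1 fit. At E11.5 the levels were 382, 330 and 419 CPM in controls and 404, 369 and 486 CPM in mutants, which overlap, with a log2 fold change of 0.16 with SE 0.15 (edgeR, adjusted p = 0.839), and 0.04 with mutant 3 left out.

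*H3f3a* lay in the same direction at E12.5 without passing the adjusted threshold. Controls had 449, 427 and 480 CPM and mutants 577, 563 and 502 CPM, and all mutants were above all controls. On the log2 scale the difference was 0.29 (SE 0.08, 95% interval 0.11 to 0.47), with an unadjusted p of 0.00403 and an adjusted p of 0.0643 in edgeR. The adjusted p was at most 0.05 in 4 of 18 alternatives, namely 0.0142 with DESeq2, 0.0483 with no filter on low counts, 0.0462 when control 3 was left out and 0.0417 when mutant 3 was. It was above 0.05 in the other 14, up to 0.213 with a library left out and 0.392 with all 12 libraries in 1 fit. At E11.5 *H3f3a* had 570, 506 and 657 CPM in controls and 539, 529 and 709 CPM in mutants, a log2 fold change of 0.05 with SE 0.17 (edgeR, adjusted p = 0.963) that turned to -0.11 with mutant 3 left out.

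Both H3.3 genes were highest at E11.5 in the third control and the third mutant library, where long genes were lowest against short genes. Of the summed RPKM of the H3.3 genes, *H3f3b* gave 26.1% ± 0.485 (SD, n = 3) in control and 27.7% ± 0.937 in mutant hearts at E11.5. At E12.5 these shares were 26.8% ± 0.919 and 29.4% ± 1.43. The lowest mutant was above the highest control at both stages, with 27% against 26.6% at E11.5 and 28.2% against 27.9% at E12.5. The sum itself was 574 ± 29.4 RPKM in control and 719 ± 38.2 RPKM in mutant hearts of E12.5, against 726 ± 92.4 and 761 ± 123 RPKM at E11.5. The E12.5 controls were thus the low group. Erythroid and macrophage marker levels were lower in the E12.5 mutants, where the H3.3 values were higher, and their part in the result was not tested. Short genes also stood higher in these mutants, with a median log2 fold change of 0.11 below 1500 bases, where *H3f3a* lies with 1076 bases, and of 0.02 from 1500 to 3000 bases, where *H3f3b* lies with 1993 bases. With the length trend of each library removed, an alternative chosen after seeing the data, *H3f3b* kept 0.44 (adjusted p = 0.00326, edgeR) and *H3f3a* had 0.20 (adjusted p = 0.153).

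**Figure D2:**
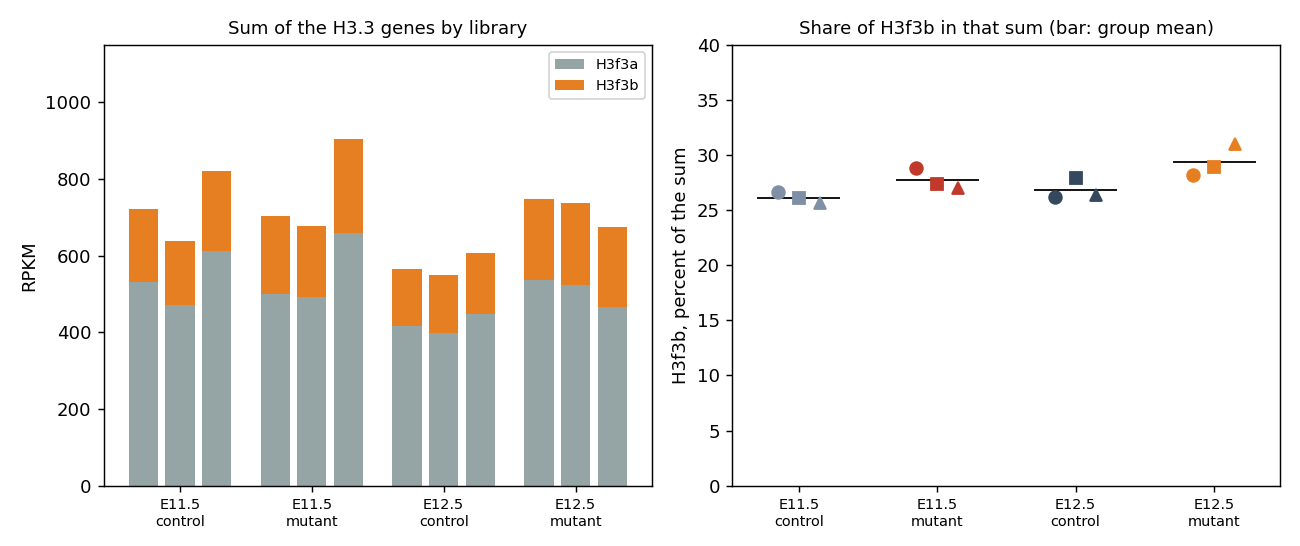
Left, RPKM of *H3f3a* (grey) and *H3f3b* (orange) stacked for each library in replicate order within the 4 groups. Right, the percent of that sum given by *H3f3b*, with a symbol for each replicate and a bar for the group mean. The sums of the E12.5 controls, 550 to 606 RPKM, lie below those of the E12.5 mutants, 676 to 747 RPKM.

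The promoter windows of the H3.3 genes in RefSeq (GRCm38.p6), of 300 bases around the first base of the RefSeq transcript, differed in makeup. Both windows lie inside the gene spans of the annotation, on chromosome 1 from 180800832 to 180813943 for *H3f3a* and on chromosome 11 from 116021912 to 116027962 for *H3f3b*, since some annotated transcripts start further upstream. Searched on both strands were CCAAT and TATAAA. The *H3f3b* promoter held 4 CCAAT matches and 1 TATAAA match, and the *H3f3a* promoter 1 CCAAT match and 0 TATAAA matches. Counting both strands, CCAAT was found in 37.4% and TATAAA in 13.6% of all 32851 promoters of the table. The bases of the *H3f3a* window were 74% G or C and those of *H3f3b* 55%, where the median promoter had 52.7%. The repeat GAGAGAGA or its reverse complement, searched because the study links HIRA sites to GAGA sequences, was in none of the 10 promoters of the 8 genes with an entry and in 3.93% of all promoters. At that share, none in 10 windows says little. The sites of the study were HIRA peaks, mostly distal intergenic or in introns, and so of another kind than these windows.

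*Whsc1* had 218, 205 and 193 CPM in E12.5 controls and 188, 193 and 191 CPM in E12.5 mutants. The highest mutant and the lowest control were both at 193 CPM, with a log2 fold change of -0.09 (SE 0.07, 95% interval -0.25 to 0.06, adjusted p = 0.489, edgeR). E11.5 controls had 176, 195 and 183 CPM and mutants 199, 195 and 149 CPM, the last in the library with low long genes, and the log2 fold change of -0.02 turned to 0.09 without it. Of the paralogs, *Whsc1l1* was at 81.5 to 87.2 CPM in E12.5 controls and 69 to 74 CPM in E12.5 mutants without overlap (log2 fold change -0.21 with SE 0.07, edgeR adjusted p = 0.125). *Nsd1* overlapped, with 199 to 245 and 199 to 222 CPM.

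Over the 9 genes, 0 were changed at E11.5, meaning past both the adjusted p of 0.05 and the 1.5-fold threshold, where 0.115% of all genes tested were (edgeR, and also 0 with DESeq2), and the count without the fold threshold was also 0 (0.115% of all genes). At an unadjusted p under 0.05 the count was 0, against 10.2% of all genes, and 1 gene (*Daxx*) had groups that did not overlap, against 16.4%. At E12.5, 0 were changed (2.95% of all genes), 1 had an adjusted p of at most 0.05 (5%), 3 had an unadjusted p under 0.05, namely *Asf1a*, *H3f3a* and *H3f3b* (21.4%), and 3 did not overlap between groups (26.4%). With 9 genes, these shares say nothing particular about the list. The median log2 fold change over the members was 0.12 in the younger and 0.06 in the older hearts, where all genes tested had medians within 0.01 of 0.

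With both stages in 1 fit, 0 genes were changed (3.22% of all genes) and *H3f3b* alone had an adjusted p of at most 0.05 (6.85%), while *H3f3b* and *Asf1a* had an unadjusted p under 0.05 (19.4%). The log2 fold change of *H3f3b* was 0.32 with SE 0.09 (edgeR, adjusted p = 0.045). This call was fragile, since 9 of the 12 fits that left out a library lost it, with adjusted p up to 0.121. It was lost without any of the 6 E12.5 libraries (0.0941 to 0.121), without the first (0.0617) or second (0.0981) E11.5 control and without the third E11.5 mutant (0.104). Of the 11 alternatives with all libraries 7 kept it, and it was lost under upper quartile (0.0644) or median-ratio (0.0505) scaling, when low genes were all kept (0.0539) and when the lower limit on mean RPKM was raised to 5 (0.0535).

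**Figure D3:**
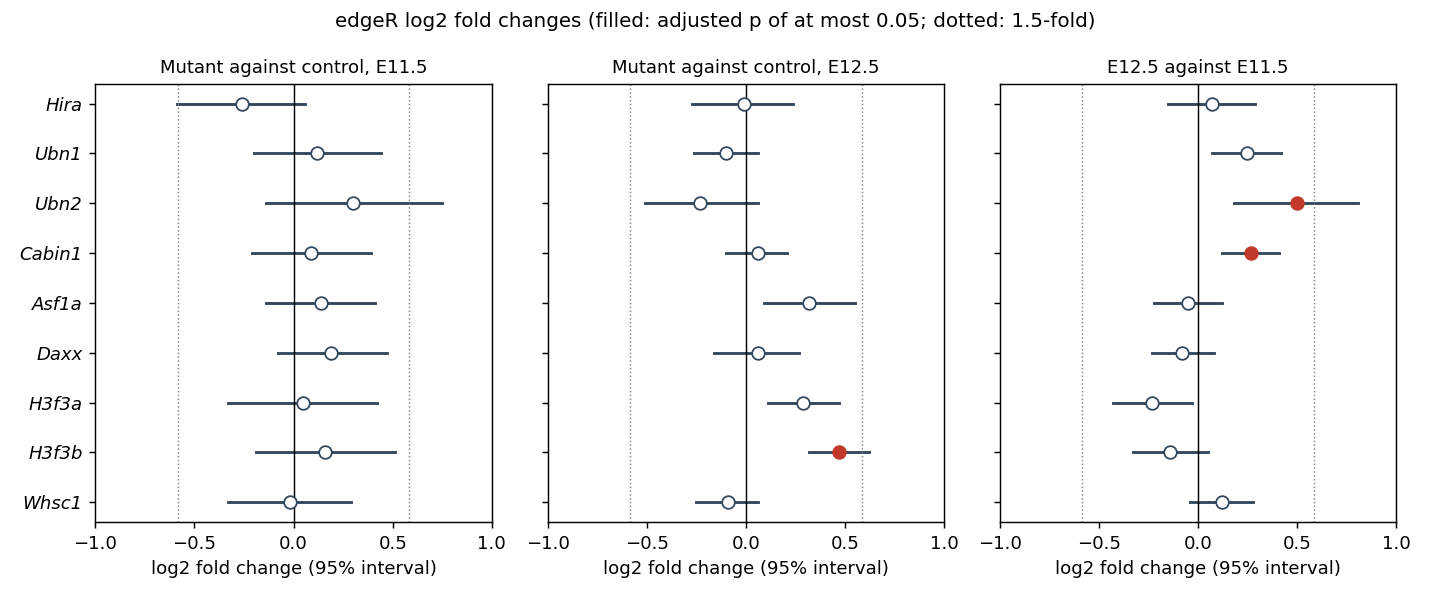
log2 fold change of each gene (horizontal axis, with its 95% interval) for mutants against controls at E11.5, mutants against controls at E12.5, and E12.5 against E11.5 with genotype in the fit. Filled points have an adjusted p of at most 0.05 (edgeR) and dotted lines mark 1.5-fold. *H3f3b* is filled in the E12.5 panel and *Ubn2* and *Cabin1* in the stage panel, and none of the points lies beyond a dotted line.

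The genotype effects were not shown to differ between stages. The difference, effect at E12.5 minus effect at E11.5, had an adjusted p of at most 0.05 for 0 of the 9 genes and 0% of all genes, and an unadjusted p under 0.05 for 0 of the 9 and 4.49% of all genes in edgeR. DESeq2 also gave 0 of the 9. The largest difference was that of *Ubn2*, -0.53 (SE 0.26, adjusted p = 0.956), and *H3f3b* had 0.31 (SE 0.16, 95% interval -0.04 to 0.66).

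Between E11.5 and E12.5, with genotype in the fit, 0 genes were changed by at least 1.5-fold (3.78% of all genes) and 2 had an adjusted p of at most 0.05 (12.2%), both subunits of the HIRA complex. *Ubn2* had a log2 fold change of 0.50 with SE 0.15 (edgeR, adjusted p = 0.0417), from 43.6 to 73.5 CPM at E11.5 to 63.2 to 103 CPM at E12.5, and *Cabin1* of 0.27 (SE 0.07, adjusted p = 0.0273), from 65.6 to 83.5 CPM to 83.1 to 93.2 CPM. For both genes the stages overlap. *Ubn1* had 0.25 (adjusted p = 0.0583) and *H3f3a* -0.23 (adjusted p = 0.113), and these 4 genes had an unadjusted p under 0.05, against 32.6% of all genes.

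The *Ubn2* call was kept in 3 of 12 fits that left out a library and the *Cabin1* call in 7 of 12. *Ubn2* lost it in adjusted p, from 0.056 to 0.101, without any E11.5 control, without the third E11.5 mutant (0.0722), without any E12.5 control and without the first (0.0749) or second (0.056) E12.5 mutant. *Cabin1* lost it, from 0.0502 to 0.0719, without control 1 or 3 of E11.5, the first or second E12.5 control or the second E12.5 mutant. With sex as a covariate the adjusted p was 0.0845 for *Ubn2* and 0.0713 for *Cabin1*.

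Gene length moved with the stage comparison. The median log2 fold change of all tested genes from E11.5 to E12.5 was -0.20 under 1500 bases, -0.05 from 1500 to 3000, 0.07 from 3000 to 6000 and 0.20 over 6000 bases. *Cabin1* (7460 bases) and *Ubn1* (6455 bases) differed from the median of their length class by 0.06 and 0.04, *H3f3a* by -0.03 and *Hira* by less than 0.01 in size, while *Ubn2* (14669 bases) stood 0.29 above its class. With the length trend of each library removed, the log2 fold changes were 0.17 for *Ubn2* (adjusted p = 0.172) and 0.07 for *Cabin1* (adjusted p = 0.415) in edgeR. *Whsc1* (12796 bases) went from 0.12 to -0.19 (adjusted p = 0.0418).

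**Figure D4:**
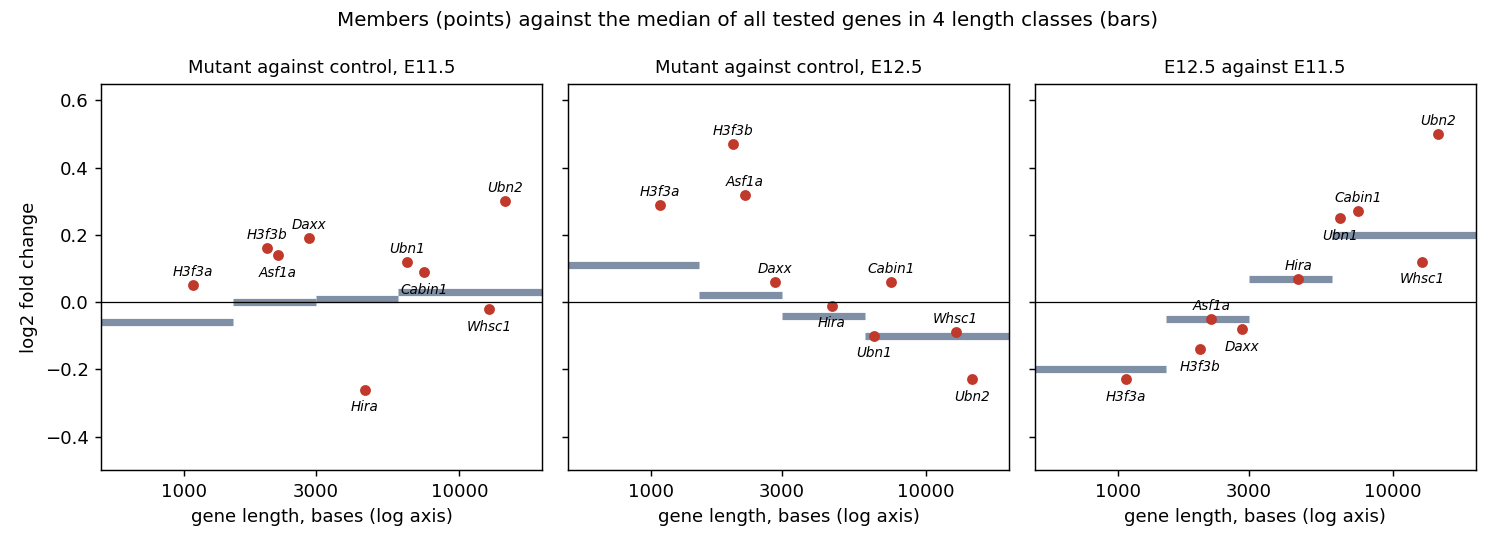
log2 fold change of the 9 genes (points) against gene length in bases on a log axis, for the same 3 comparisons, with horizontal bars for the median of all tested genes in 4 length classes. From E11.5 to E12.5 the bars rise from -0.20 to 0.20 with length and most points follow them. In E12.5 mutants against controls the bars fall from 0.11 to -0.10, and *H3f3b* stands 0.45 above its bar.

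Across the 12 libraries, members of like gene length tended to vary together, though *Hira* and *Daxx* did so weakly. Long members here had at least the 4534 bases of *Hira*, and short members at most the 2835 bases of *Daxx*. Pearson r of log2 CPM was 0.22 to 0.92 for the 10 pairs among the long genes *Hira*, *Ubn1*, *Ubn2*, *Cabin1* and *Whsc1*, and 0.16 to 0.87 for the 6 pairs among the short genes *Asf1a*, *Daxx*, *H3f3a* and *H3f3b*. It was -0.86 to -0.02 for the 20 mixed pairs. The closest pair was *Ubn1* and *Ubn2* (0.92), followed by *H3f3a* and *H3f3b* (0.87). Within its class, *Hira* had r of 0.22 to 0.35 and *Daxx* of 0.16 to 0.27. These values are descriptions, since the libraries share stage, genotype and length trend. *Hira* followed its own subunits weakly, with r of 0.24 for *Ubn1*, 0.22 for *Ubn2* and 0.31 for *Cabin1*. The genes most like *Hira* among 11458 compared were *Sh3bp2* (0.88), *Asap3* (0.83), *Tctn1* (0.82), *Dnm1* (0.81) and *Wdr24* (0.81).

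Of 15 further partners and readers of H3.3, such as the methyltransferase SETDB1 and the remodellers CHD1 and CHD2, 12 were tested. Between genotypes 0 had an adjusted p of at most 0.05 at E11.5 or E12.5, where 0.115% and 5% of all genes did (edgeR). The count at an unadjusted p under 0.05 was also 0 at each stage, where 10.2% of all genes at E11.5 and 21.4% at E12.5 were under it, and the median log2 fold change was -0.05 at E11.5 and -0.06 at E12.5. Over the stages, *Chd2* was higher at E12.5 (0.43 on the log2 scale with SE 0.11, edgeR adjusted p = 0.0221) and *Rpa3*, a small subunit of the single-strand binding protein RPA, was lower (-0.55, SE 0.11, adjusted p = 0.00785). These were 2 of the 12 tested, where 12.2% of all genes passed. *Chd2* has 9071 bases and *Rpa3* 638, and both moved in the direction of their length class. Of 10 chaperones tied to DNA replication, such as the CAF-1 subunits *Chaf1a* and *Chaf1b*, 9 were tested and 0 passed at either stage, where 0.115% and 5% of all genes did. At an unadjusted p under 0.05 the list had 0 at E11.5, against 10.2% of all genes, and 2 at E12.5, against 21.4%. These were *Asf1b* (0.23) and *Tonsl* (-0.24), on opposite sides of 0 on the log2 scale, and *Tonsl* is named here after its values were seen. *Whsc1l1* was higher at E12.5 than at E11.5 (0.32, SE 0.09, edgeR adjusted p = 0.0416). It has 11646 bases, and the median change of all tested genes over 6000 bases was 0.20. Whether the stage calls of *Chd2*, *Rpa3* and *Whsc1l1* hold with a library left out is not given here.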

How the data were processed

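RNA-seq of 12 hearts or pools of hearts was used. The authors aligned paired-end reads (the labels name Bowtie2, DESeq and mm10); the counting program, annotation and use of strand are not given in the sources used here. The table deposited as RPKM by the authors holds values of another kind, each the product of a whole count, the gene length and a library factor. The authors' comparisons hold the average count of each group, an expected count, from which the whole counts of 17827 genes were recovered (largest distance from a whole number 5.53e-10). Their fold changes, z scores and p-values were not used.

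Counts of autosomal genes were tested where the mean RPKM was 0.5 or more, with edgeR 4.0.16 (quasi-likelihood, TMM, R 4.3.3), within each stage and over all 12 libraries with stage and genotype or their interaction, with p-values adjusted by Benjamini-Hochberg over all genes. Changed genes had to pass the limits used in the study, 0.05 for the adjusted p and 1.5 for the fold. Levels are CPM or RPKM from TMM-scaled library sizes, and RPKM was used between genes. DESeq2 1.42.0, limma 3.58.1 and other settings were alternatives. The scripts were tested on simulated data. Intervals are at the 95% level. Replicates of a group were distinct, with r of 0.9721 to 0.9934.

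Named were the 9 members, their paralogs *Asf1b*, *Nsd1* and *Whsc1l1*, *Atrx*, list genes with an adjusted p of at most 0.05 (at most 4 per list and comparison) and the 5 genes most like *Hira*. Members and lists were chosen with earlier results of these data known.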

Additional observations from a re-analysis of the deposited data

How the results depend on the processing

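The count of changed members was 0 in each comparison and stayed 0 under 106 alternatives. It was 1 at E12.5 (*H3f3b*), 1 with both stages in a fit (*H3f3b*) and 2 between stages (*Ubn2* and *Cabin1*) with no fold threshold. With a library left out, the count between stages ran from 0 to 1, the 1 being *Ubn2* without the first E11.5 mutant. The replicate numbers share nothing in the labels, and libraries of the same number and stage had correlated deviations of -0.05 to 0.44, not all above 0.1, so the numbers were not taken as pairs. With the replicate block *H3f3b* at E12.5 had 0.47 (adjusted p = 0.00716, edgeR) and 0 members were changed, while *Ubn1* between stages passed (adjusted p = 0.0385). The block moved the count over all genes at E11.5 from 14 to 73.

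Signs that turned belonged to effects that did not pass in the reported fits, and the cause was not tested. With sex as a covariate, the log2 fold change at E11.5 was -0.13 for *Ubn1*, -0.16 for *Ubn2* and -0.02 for *Cabin1*, over both stages -0.04 for *Ubn1* and -0.07 for *Ubn2*, and the difference between stages was 0.06 for *Cabin1* and 0.06 for *Whsc1*. The only male E11.5 mutant was the third library, so the E11.5 values here compare it with the male controls. With the length trend removed, chosen after seeing the data, the log2 fold change was 0.03 for *Hira* and 0.05 for *Whsc1* at E12.5, 0.00 for *Whsc1* over both stages, -0.02 for *Hira* and -0.19 for *Whsc1* between stages, and 0.07 for *Cabin1* and 0.09 for *Whsc1* in the difference between stages. *Hira* at E12.5 was at 0.00 with upper quartile scaling, 0.00 with limma on log2(RPKM + 0.5) and 0.00 with a pseudocount of 0.1, and *Ubn1* over both stages at -0.00 with no filter on low counts. With a library left out, the values at E11.5 ran from -0.11 to 0.15 for *H3f3a* and from -0.10 to 0.09 for *Whsc1*. At E12.5 they ran from -0.14 to 0.10 for *Hira* and from -0.01 to 0.11 for *Daxx*, over both stages from -0.04 to 0.05 for *Ubn1* and from -0.07 to 0.14 for *Ubn2*, and for the difference between stages from -0.15 to 0.03 for *Cabin1*.

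The counts over all genes depended on the settings. Against 14 changed genes at E11.5, the alternatives gave 0 to 248 (DESeq2), against 362 at E12.5 they gave 132 (all 12 libraries in a fit) to 613 (no fold threshold), and against 395 over both stages 120 (mean RPKM of at least 5) to 840. Between stages they gave 159 (mean RPKM of at least 5) to 1501 (no fold threshold), against 464. The difference between stages had 0, and 40 with DESeq2 and 10 without the third E11.5 mutant. With 3 libraries in a group, the intervals of single genes allow changes that would not be called.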
